A study of Mus musculus with 47 samples.

Results

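The potassium channel genes described here were the protein-coding genes of GENCODE M21 whose symbol starts with Kcn, leaving out *Kcne2*. This rule gave 93 genes of the 53068 genes shared by the deposited table of TPM (transcript levels scaled to transcript length and library total) and the deposited table of counts, and all 93 were found in both. Their RNA was measured by sequencing of the cortex of 47 adult male C57BL/6J mice, with 1 library per mouse. Control chow was given to 23 mice and chow with 1200 ppm PLX5622 to 24 mice for 10 days. This compound inhibits CSF1R, the receptor whose signal keeps microglia alive, and given in food it reaches the whole animal. Tissue was taken every 4 h at 6 Zeitgeber times from ZT2 to ZT22, with lights on at ZT0 and off at ZT12. Each diet had 4 mice per time, except for 3 control mice at ZT14.

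Potassium channels let potassium leave the cell and so set the resting potential and end the action potential. Voltage-gated (Kv) channels open on depolarisation, calcium-activated channels open when calcium rises, inward rectifiers (Kir) hold the resting potential, and the 2-pore-domain (K2P) channels conduct a background leak. In the cortex most are known from neurons, a few carry potassium uptake by astrocytes, and in microglia potassium efflux is known for its part in surveillance by cell processes and in the release of interleukin-1 beta. The genes were grouped by these roles into 13 lists, with 29 genes in no list.

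Counts on genes totalled 16597987 to 27626161 in a library, and the median was 18314954 for the control diet and 21476967.5 for PLX5622. All 14 microglia markers fell with PLX5622, to a median of 8.86% of their control mean (7.37% to 20.1%), and their summed level was 620 to 926 TPM in control mice and 24.6 to 142 TPM in PLX5622 mice. The neuron list had 0 of 6 markers past the threshold and sums of 2048 to 3537 TPM in control and 2150 to 3384 TPM in PLX5622 mice, and the astrocyte list had 1 of 6, which was higher. Of 8 choroid plexus markers 3 were higher with PLX5622, and the sum of the 7 striatum markers, of which 0 passed, ranged from 203 to 1087 TPM in control mice.

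Of the 93 channel genes, 70 reached a mean of 1 TPM over all libraries and were tested, together with all 14580 genes that did, with limma on log2(TPM + 1). The other 23 genes had means from 0.00231 to 0.916 TPM, among them the microglial candidates *Kcnk6* and *Kcnn4*. A call required an adjusted p (Benjamini-Hochberg, over all genes tested) under 0.05. The 93 genes summed to 1712 TPM in control mice and 1710 TPM in PLX5622 mice, and 39 of them had a control mean over 10 TPM. The highest was *Kcnab2*, a beta subunit of Kv1 channels, with 239 ± 23.3 TPM (SD, n = 23) in control mice and 237 ± 26.0 TPM (SD, n = 24) in PLX5622 mice. Other genes with high levels were *Kcnmb4*, the neuronal beta4 subunit of the large-conductance BK channel (91.0 ± 9.87 and 84.7 ± 8.17 TPM), *Kcnj10* (87.2 ± 14.6 and 79.3 ± 15 TPM) and the Kv4 partner *Kcnip2* (72.6 ± 8.81 and 73.4 ± 5.44 TPM). *Kcnmb4* and *Kcnj10* lay within 1 SD of each other in control mice. The place of *Kcnmb4* depended on the table. Library-scaled counts (CPM) per kilobase of exon ranked it 40 of 93 instead of 2, and its TPM was 17.1 times that value, where the median over the tested channels was 1.68 times. A pair of antisense genes shares 10.7% and 20.8% of its exon bases, and the strand of the libraries is not stated in the sources used here.

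The first comparison asked which channel genes changed with microglial depletion. *Kcnk6* fell to 36.2% of its control mean, and no other gene of the microglial list passed the test. *Kcnk6* encodes the K2P channel TWIK-2, which is known from macrophages as a path of potassium efflux before inflammasome activation. It lies on chromosome 7 of GRCm38 from 29221926 to 29232515, on the minus strand. *Kcnk13* encodes THIK-1, the leak channel known from microglia as the one that sets their resting potential and keeps their processes surveying, and lies on chromosome 12 from 99964499 to 100062682 on the plus strand. Since these genes belong to the same structural family and differed in response, the coding stretch around the second selectivity filter, the part of the pore that selects potassium, is shown for both, with the 5 filter codons in capitals. The stretches come from GENCODE M21 transcripts, in exon 2 of 3 of *Kcnk6* (chr7:29225512-29225574, minus strand) and exon 3 of 3 of *Kcnk13* (chr12:100061352-100061414, plus strand), and share 36 of 63 bases.
Kcnk6: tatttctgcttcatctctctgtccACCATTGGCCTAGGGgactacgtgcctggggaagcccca
Kcnk13: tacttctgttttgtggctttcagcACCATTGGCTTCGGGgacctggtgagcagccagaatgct

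In control mice *Kcnk6* had a lowest value of 0.826, a median of 1.29 and a highest value of 1.95 TPM (mean 1.33 ± 0.263 SD, n = 23). In PLX5622 mice these values were 0.239, 0.445 and 1.02 TPM (mean 0.482 ± 0.161 SD, n = 24). All but 1 of the PLX5622 mice (23 of 24) were below every control mouse, and the exception was the fourth mouse at ZT18. Group means were lower with PLX5622 at all 6 Zeitgeber times, from 1.23 to 1.60 TPM in control groups and from 0.379 to 0.620 TPM in PLX5622 groups, and at 5 of the 6 times every PLX5622 mouse was below every control mouse of that time. At ZT18 the values were 1.02, 1.24, 1.29 and 1.35 TPM in control mice against 0.455, 0.436, 0.569 and 1.02 TPM in PLX5622 mice. The gene rested on 50 to 135 counts per library in control mice and 20 to 59 in PLX5622 mice.

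Because its mean over all libraries was 0.898 TPM, *Kcnk6* was not among the 70 genes tested. Without the filter, limma gave a log2 difference of -0.66 (standard error 0.043, 95% interval -0.74 to -0.57, adjusted p = 8.547e-17) on the log2(TPM + 1) scale, which understates the change of a low gene, where 1.74% of the 33748 genes were called lower. On the counts, edgeR gave a log2 difference of -1.43 (adjusted p = 7.184e-20), a 2.7-fold lower level. In these bulk samples, fewer cells of a type and less RNA per cell cannot be told apart. The remaining 36.2% of *Kcnk6* was above the 7.37% to 20.1% that remained of the 14 microglia markers. Markers of border macrophages were lower too. The 6 genes of that list, of which 2 reached the filter, were at 4.41% to 27.1% of control. Which cells the fall of *Kcnk6* came from was not tested.

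*Kcnk13* was at 3.5, 4.16 and 5.96 TPM (lowest, median, highest, n = 23) in control mice and at 2.72, 4.20 and 5.86 TPM (n = 24) in PLX5622 mice. The groups overlapped almost entirely, with 3 PLX5622 mice below every control mouse and 0 above. Its log2 difference was -0.02 (standard error 0.053, 95% interval -0.13 to 0.08, adjusted p = 0.878), and edgeR gave -0.06 (adjusted p = 0.587). *Kcna3*, the gene of the voltage-gated channel Kv1.3 that T cells and activated microglia are known to use, was at 3.02, 5.38 and 8.07 TPM in control mice and 4.05, 5.45 and 9.31 TPM in PLX5622 mice, with a log2 difference of 0.10 (95% interval -0.08 to 0.28). *Kcnj2* encodes the strong inward rectifier Kir2.1, also known from neurons and vessels. It was at 2.48, 3.73 and 5.22 TPM in control mice and 2.51, 3.85 and 6.10 TPM in PLX5622 mice, a log2 difference of 0.06 (95% interval -0.10 to 0.21). *Kcnn4*, the gene of the intermediate-conductance calcium-activated channel KCa3.1, had medians of 0.225 and 0.246 TPM on 0 to 17 and 1 to 28 counts per library, so a difference could hardly be detected at this depth. *Kcnk13*, *Kcna3* and *Kcnj2* thus had means in PLX5622 mice of at least 98.1% of control, beside 7.37% to 20.1% for the 14 microglia markers, so the RNA of these 3 genes in this tissue did not follow the name of their list.

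**Figure D1:**
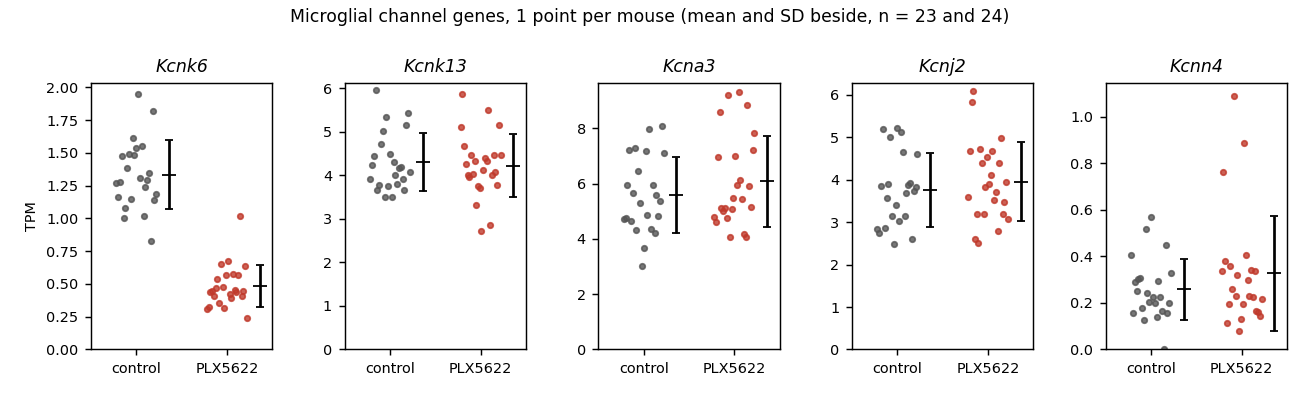
TPM (vertical axis, from 0) of the 5 genes of the microglial channel list in control (grey, n = 23) and PLX5622 mice (red, n = 24), with 1 point per mouse and the mean and SD beside the points. *Kcnk6* separates the diets in all but 1 PLX5622 mouse, whereas *Kcnk13*, *Kcna3*, *Kcnj2* and *Kcnn4* overlap.

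Purinergic receptor genes and an ectonucleotidase gene were set beside these channels. THIK-1 is known to be opened through P2Y12, the ADP receptor of microglia, and TWIK-2 to work with the ATP-gated channel P2X7. Of 6 purinergic genes 4 were called lower in PLX5622 mice, where 2.58% of all 14580 genes were. *P2ry12* was at 42.1 ± 6.42 TPM in control mice and 3.32 ± 1.74 TPM in PLX5622 mice, 7.88% of control. *P2ry13* and *P2ry6* were at 6.04% and 20.6% of control. *P2rx7* was at 3.12 ± 0.701 TPM and 2.19 ± 0.589 TPM, 70.2% of control (log2 difference -0.37, standard error 0.071, adjusted p = 2.62e-04). *P2rx4* (99.7% of control) and the ectonucleotidase gene *Entpd1* (87.5%) did not pass the threshold. *P2ry12* is also one of the 14 microglia markers.

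The relation between channel level and the level of the microglia markers was tested over the 24 PLX5622 mice, which differed in the mean log2(TPM + 1) of the 14 markers from 1.08 to 3.2. For *Kcnk6* Pearson's r was 0.40 (permutation p = 0.0504, 0.201 adjusted over the 4 relations) and Spearman's rho 0.44 (permutation p = 0.0306, 0.122 adjusted). Without the 2 mice farthest from the median marker level r was 0.36 (n = 22), and it was 0.37 with both measures centred within Zeitgeber time. None of the relations passed after adjustment. For *Kcnk13* r was -0.16 and rho -0.22 (permutation p = 0.443 and 0.297), for *Kcna3* 0.20 and 0.19 (permutation p = 0.357 and 0.363), and for *Kcnj2* -0.09 and -0.00087 (permutation p = 0.675 and 0.998), all two-sided.

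Channels of other non-neuronal cells came next. *Kcnj10*, the gene of Kir4.1, the main potassium uptake channel of astrocytes, was at 61.9, 85.6 and 123 TPM in control mice and 60.3, 77.7 and 123 TPM in PLX5622 mice, with a log2 difference of -0.14 (95% interval -0.28 to 0.003, adjusted p = 0.319). *Kcnj16*, whose product Kir5.1 joins Kir4.1 in one channel, was at 13.8, 17.6 and 25.5 TPM and 13.2, 17.1 and 24.2 TPM, a log2 difference of -0.05 (95% interval -0.17 to 0.06). Both ranges overlapped nearly in full. In vessels, *Kcnj8*, the gene of the pericyte KATP pore Kir6.1, had medians of 2.04 and 2.14 TPM and a log2 difference of 0.07 (95% interval -0.05 to 0.18), and *Kcnmb1*, the BK beta1 subunit of smooth muscle, had medians of 0.355 and 0.393 TPM and was below the filter.

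*Kcnj13* encodes Kir7.1, an apical channel of the choroid plexus epithelium, and had the largest log2 difference of the 70 tested genes, 0.34 (standard error 0.13, 95% interval 0.07 to 0.61). It did not pass the threshold (adjusted p = 0.180). The gene rested on 7 to 54 counts per library in control mice and 6 to 83 in PLX5622 mice. Values were 1.12, 4.32 and 6.63 TPM in control mice and 1.44, 5.12 and 7.86 TPM in PLX5622 mice, so the groups overlapped, with 2 PLX5622 mice above every control mouse. The sum of 8 choroid plexus markers was higher too. It was at 159, 612 and 1364 TPM in control mice and 252, 958 and 1465 TPM in PLX5622 mice (lowest, median, highest). Most of that sum was *Ttr*, with means of 517 and 777 TPM. The means of the 8 genes were at 111% to 154% of control, and 3 passed the threshold. In any library 0 of the 8 was at 0 TPM. Across mice of a diet, *Kcnj13* and the mean log2(TPM + 1) of these markers correlated with r = 0.89 and rho = 0.88 in 23 control mice and r = 0.83 and rho = 0.59 in 24 PLX5622 mice (two-sided permutation p = 1e-05 for both r, the smallest that the permutations can give, also 1e-05 adjusted over 2 relations). Permutation p for rho was 1e-05 and 0.00296, or 2e-05 and 0.00296 adjusted. Without the 2 farthest mice r was 0.83 (n = 21) and 0.51 (n = 22), so the size in PLX5622 mice rested in part on those mice. Whether choroid plexus tissue accounts for the difference between the diets was not tested. *Kcnj13* lies within *Gigyf2* on the opposite strand, and 49.1% of its exon bases are shared with that gene, so reads of the pair may not be separated in unstranded counts.

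**Figure D2:**
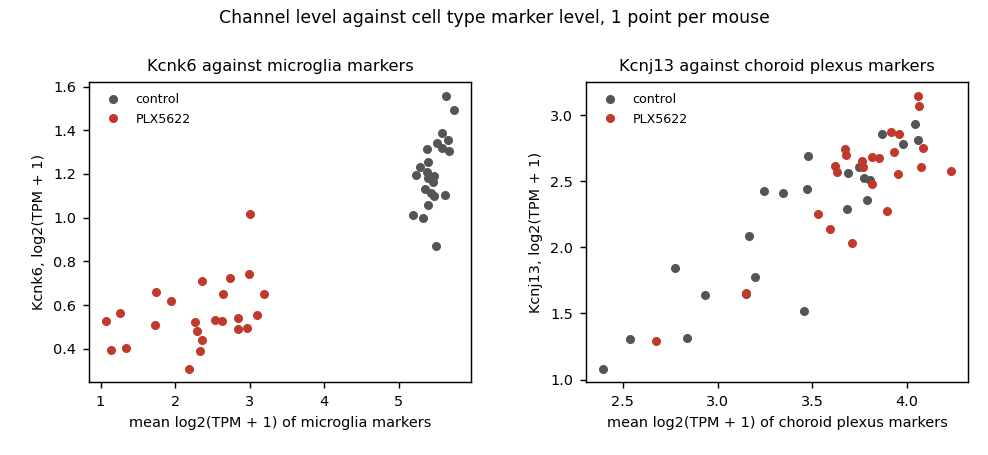
Left, *Kcnk6* against the mean log2(TPM + 1) of 14 microglia markers. Right, *Kcnj13* against that of 8 choroid plexus markers. Both axes are log2(TPM + 1), with 1 point per mouse, control in grey (n = 23) and PLX5622 in red (n = 24). The microglia marker levels of the diets do not overlap, and within PLX5622 mice *Kcnk6* has r = 0.40, whereas *Kcnj13* follows the choroid plexus markers in both diets (r = 0.89 and 0.83).

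Over all 70 tested channel genes, 0 were called for diet in limma, where 3.45% of the 14580 genes were called, 2.58% lower and 0.871% higher. At an unadjusted p under 0.05 there were 7 of 70 genes, 5 with a higher and 2 with a lower mean, where 16.2% of all genes were. The smallest adjusted p was 0.106, for *Kcns2*. The log2 differences of the 70 genes ran from -0.16 to 0.34, and 69 of them were within 0.2 of 0. Their median was 0.03, the same as the median of 0.03 over all 14580 genes. The 95% intervals of the 70 genes lay between -0.36 and 0.61. Among 82 genes tested on counts, edgeR called 3, among them *Kcnk6* and *Kcnab3*, where 6.8% of all 18274 genes were called, and DESeq2 called 4, among them also *Kcns2*.

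Among neuronal lists, none of the 10 Kv1 to Kv3 genes was called. These genes encode the channels that shape and repolarise the action potential. Their median log2 difference was -0.03. *Kcna4* (named after its values were seen) had a log2 difference of -0.11 in TPM and 0.11 in counts, so its direction depended on the table. The list of Kv4 channels, which carry the dendritic A-type current, and their KChIP partners had 0 of 6 calls and a median of 0.04.

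*Kcnab3*, a beta subunit of Kv1 channels, was at 21.6, 27.6 and 33.5 TPM in control mice and 16.5, 24.8 and 38.3 TPM in PLX5622 mice, and 6 PLX5622 mice were below every control mouse. Its log2 difference of -0.16 (standard error 0.065) did not pass in limma (adjusted p = 0.190), but it passed in edgeR with -0.19 (adjusted p = 0.00786). The 3 beta subunit genes ran from -0.16 to 0.15 and did not share a direction. An antisense gene shares 5.1% of the exon bases of *Kcnab3*.

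*Kcns2* encodes Kv9.2, a subunit that is silent alone and modifies Kv2 channels. It was at 4.20, 6.01 and 9.47 TPM in control mice and 5.03, 7.14 and 10.3 TPM in PLX5622 mice, and its group mean was higher with PLX5622 at all 6 Zeitgeber times. The log2 difference was 0.19 (standard error 0.064, 95% interval 0.06 to 0.31, adjusted p = 0.106). Of the 8 tested modifier subunits (*Kcnf1*, *Kcng1*, *Kcng2*, *Kcng4*, *Kcns1* to *Kcns3* and *Kcnv1*) 0 were called, and 7 had a difference above 0, as did 65.7% of the 70 channel genes and 64.8% of all genes. *Kcnv1*, another silent subunit, was at 26.7 ± 7.65 and 29.6 ± 5.41 TPM, with a log2 difference of 0.17 (95% interval -0.01 to 0.36). 

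The 7 calcium- and sodium-activated channel genes of neurons (*Kcnma1*, *Kcnmb4*, *Kcnn1* to *Kcnn3*, *Kcnt1* and *Kcnt2*) had 0 calls and a median log2 difference of 0.08. *Kcnt2*, the gene of the sodium-activated channel Slick, was at 5.39 ± 1.27 and 6.17 ± 1.39 TPM, with a log2 difference of 0.17 (95% interval -0.002 to 0.34), and *Kcnmb4* had a log2 difference of -0.10 (95% interval -0.19 to -0.01, adjusted p = 0.239). *Kcnn1*, named after its values were seen, had a log2 difference of 0.14 in TPM and -0.05 in counts. The 3 GIRK genes (*Kcnj3*, *Kcnj6*, *Kcnj9*), which couple to inhibitory G-protein receptors, had 0 calls and a median of 0.04. The 6 EAG, ERG and ELK genes (*Kcnh1* to *Kcnh5* and *Kcnh7*) had 0 calls and a median of 0.04. For the 6 neuronal K2P genes (*Kcnk1* to *Kcnk4*, *Kcnk9* and *Kcnk10*) there were 0 calls and the median was 0.05. The 11 tested genes in no list had 0 calls and a median of 0.01. Of 10 partners of these channels whose symbols do not start with Kcn, such as the Kv4 partners *Dpp6* and *Dpp10* and the KATP subunits *Abcc8* and *Abcc9*, 0 were called.

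Apart from *Kcnk6*, *Kcnn4* and *Kcnmb1*, 20 genes were under the filter. The genes *Kcne1*, *Kcne3*, *Kcne4*, *Kcng3*, *Kcnh6*, *Kcnh8*, *Kcnj1*, *Kcnj5*, *Kcnj15*, *Kcnk5*, *Kcnk7*, *Kcnk15*, *Kcnk16*, *Kcnk18*, *Kcnmb3*, *Kcnq1*, *Kcnrg*, *Kcnv2*, *Kcna7* and *Kcna10* made up this set, several of them better known from heart, kidney, muscle, sensory neurons or epithelia. In the fit without the filter *Kcnk6* was the 1 channel gene of 93 called for diet. *Kcnj1*, the renal channel ROMK, also named after its values were seen, was listed at 0 TPM in all 23 control libraries and in 23 of the 24 PLX5622 libraries.

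**Figure D3:**
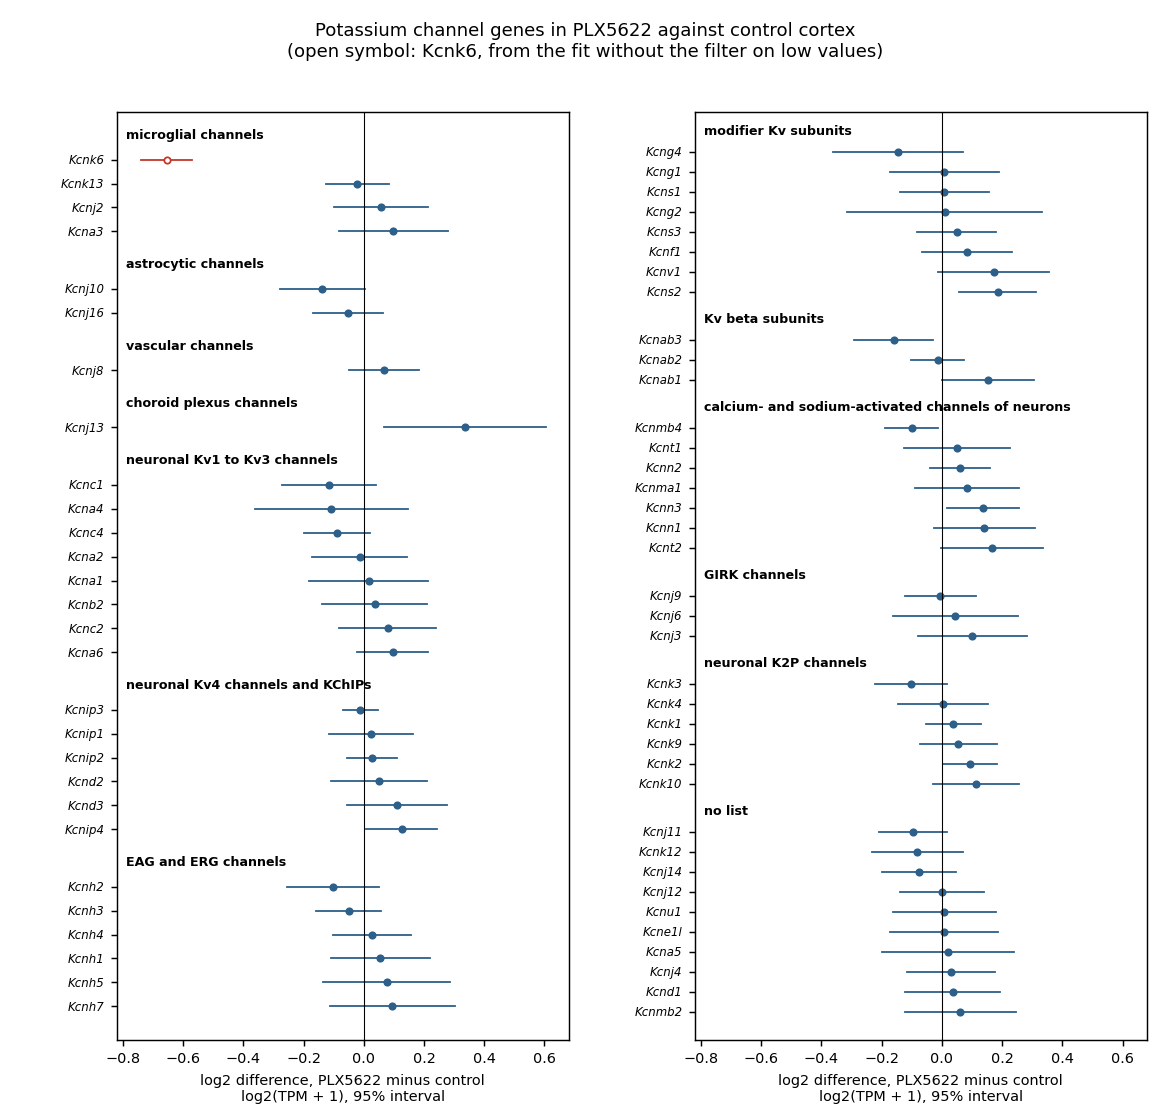
Log2 difference of log2(TPM + 1), PLX5622 minus control, with its 95% interval for 64 of the 70 tested channel genes by list, and for *Kcnk6* (open red symbol) from the fit without the filter. The filled points lie between -0.16 and 0.34 and none was called, and *Kcnk6* lies apart at -0.66.

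The second comparison asked which channel genes varied over the day. The F test of the 24-h cosine and sine terms over all 47 mice called 3 of the 70 genes (4.29%), *Kcnn2*, *Kcnip4* and *Kcnj14*, where 5.26% of all 14580 genes were called. At an unadjusted p under 0.05 there were 9 of 70 genes, where 19.8% of all genes were. The median fitted amplitude of the 70 genes was 0.09 on the log2(TPM + 1) scale, beside 0.07 over all genes tested. On counts, edgeR called 10 of 82 channel genes, where 11.3% of all genes were called. Both shares were near those of all genes.

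*Kcnn2* encodes SK2, the small-conductance calcium-activated channel that carries the afterhyperpolarisation of pyramidal neurons and limits synaptic responses in their spines. It was highest at ZT14 in both diets. In PLX5622 mice it was at 15.3, 11.7, 14.9 and 13.8 TPM at ZT6 and at 22, 18.8, 20.9 and 25.3 TPM at ZT14, with no overlap. In control mice it was at 15.8, 14.5, 16.5 and 17.0 TPM at ZT2 and at 20.4, 17.6 and 21.7 TPM at ZT14, again with no overlap. ZT6 in PLX5622 mice and ZT2 in control mice were the times of the lowest mean. The means of the other groups ran from 16.2 to 17.1 TPM in control mice and from 16.2 to 19.2 TPM in PLX5622 mice. In control mice all these other times overlapped ZT14, with highest values of 17.8 (ZT6), 21.1 (ZT10), 18.5 (ZT18) and 18.6 TPM (ZT22). In PLX5622 mice ZT10, ZT18 and ZT22 overlapped ZT14, and ZT2 did not. The amplitude over both diets was 0.17 (standard error 0.035) with a fitted peak at ZT 15 (limma adjusted p = 0.00461, edgeR adjusted p = 2.804e-04). Fitted alone, control mice had an amplitude of 0.11 (standard error 0.051) and PLX5622 mice 0.24 (standard error 0.048), and the test of the difference gave an unadjusted p of 0.136 (limma). Opposite-strand genes share 4.3% and 3.8% of its exon bases.

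*Kcnip4* encodes KChIP4, a calcium-binding partner that slows the inactivation of Kv4 channels. It was also highest at ZT14, with 26.3, 29.8 and 31.7 TPM in control mice and 27.9, 29.5, 33.1 and 37.3 TPM in PLX5622 mice. At ZT2 it was at 18.6, 19.6, 18.5 and 27.5 TPM in control mice and 20.5, 26.1, 25.1 and 23 TPM in PLX5622 mice. The 2 times did not overlap in PLX5622 mice and overlapped by 1 mouse in control mice. ZT2 was the time of the lowest mean in both diets, and values at ZT10 and ZT18 overlapped those at ZT14 in both diets. The amplitude was 0.19 (standard error 0.042) with a peak at ZT 13.4 (limma adjusted p = 0.0108, edgeR adjusted p = 7.093e-04). Opposite-strand genes share 4.6% and 2.7% of its exon bases. In 11 of the 11 groups with 4 mice, the mouse numbered 4 was above the mouse numbered 1 for *Kcnip4*. *Kcnip2*, the gene of KChIP2, had its fitted peak at ZT 0.923, near the opposite time of day, with an amplitude of 0.11 (standard error 0.029), and an adjusted p of 0.0513 in limma, just over the threshold. It passed in 8 of 11 alternatives, among them edgeR (adjusted p = 0.0206), and in 10 of 47 fits without 1 mouse. Its control means were 81.2 ± 4.61 TPM at ZT2 and 64.9 ± 14.3 TPM at ZT10, and its PLX5622 means 75.1 ± 8.96 and 73.7 ± 3.76 TPM at the same times (SD, n = 4 each). None of the other 4 genes of this list was called.

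*Kcnj14* encodes the inward rectifier Kir2.4. It had 44 to 128 counts per library in control mice and 39 to 127 in PLX5622 mice. Its means were lowest at ZT10 in control mice (1.86 ± 0.501 TPM, n = 4) and at ZT14 in PLX5622 mice (1.57 ± 0.250 TPM, n = 4), and highest at ZT6 in control mice (2.54 ± 0.472 TPM) and at ZT2 and ZT18 in PLX5622 mice (2.38 ± 0.695 and 2.39 ± 0.153 TPM). The amplitude was 0.16 (standard error 0.043) with a peak at ZT 24, and the adjusted p of 0.0487 was just under the threshold. Leaving out single mice moved it to between 0.0290 (without the first PLX5622 mouse at ZT22) and 0.0866 (without the fourth control mouse at ZT10), and it passed in 19 of 47 such fits, whereas *Kcnn2* and *Kcnip4* passed in 47 of 47.

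*Kcne4* encodes a single-pass subunit that reduces the current of several Kv channels. It was chosen for mention after its values were seen, since it is below the filter and was called for time in each fit that included it. Control means rose from 0.266 ± 0.124 TPM at ZT2 to 0.903 ± 0.199 TPM at ZT10 (SD, n = 4), and PLX5622 means from 0.429 ± 0.103 TPM at ZT22 to 1.13 ± 0.368 TPM at ZT14 (SD, n = 4). The gene had 4 to 39 counts per library in control mice and 11 to 60 in PLX5622 mice. The adjusted p was 8.088e-04 in limma without the filter and 1.519e-04 in edgeR. The clock proteins CLOCK and BMAL1 are known to bind the E-box CACGTG, and the RefSeq promoter table (GRCm38.p6, 250 bases before to 50 after the start) was searched for these letters, which read the same on both strands. They were in 7.15% of all 32851 promoters and in 7 of the 92 promoters (7.61%) of the 68 channel genes with an entry, which is near the background. *Kcne4* had a match starting 54 bases before the start site, and the stretch around it (chr1:78816827-78816892, plus strand) is shown with the match in capitals.
Kcne4: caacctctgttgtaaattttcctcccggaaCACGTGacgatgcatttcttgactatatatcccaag
*Kcnab1*, *Kcnh4*, *Kcnj2*, *Kcnk5* and *Kcnn4* also had a match. None of these was called for time in limma (without the filter for *Kcnk5* and *Kcnn4*) or in edgeR. The promoters listed for *Kcnip4* and *Kcnip2* had no match, and *Kcnn2* and *Kcnj14* had no entry. A match is not a binding site and no match says nothing of the factor.

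**Figure D4:**
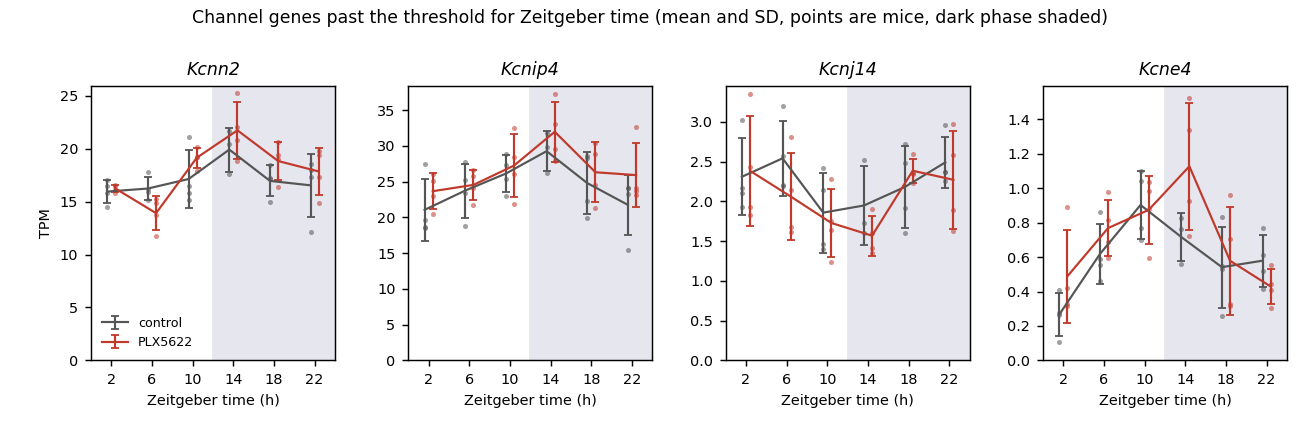
TPM (vertical axis, from 0) of *Kcnn2*, *Kcnip4*, *Kcnj14* and *Kcne4* by Zeitgeber time in control (grey) and PLX5622 mice (red), with 1 point per mouse, lines through the means and SD as error bars (n = 4, or 3 for control at ZT14). The dark phase is shaded. *Kcnn2* and *Kcnip4* are highest at ZT14 in both diets, and *Kcnj14* is low around ZT10 to ZT14.

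Within a single diet, JTK_CYCLE, a rank test for a 24-h rhythm, called 0 of the 70 channel genes in control mice, where 0.0754% of all genes were called, and 0 in PLX5622 mice, where 0.61% were called. At an unadjusted p under 0.05 there were 4 of 70 genes in control mice and 8 in PLX5622 mice, where 8.53% and 11.1% of all genes were. The smallest adjusted p was 0.175 in control mice and 0.146 in PLX5622 mice, for *Kcnn2* among others. The F test of limma within each diet called 0 in control mice and *Kcnn2* in PLX5622 mice (adjusted p = 0.0345), where 0.247% and 0.926% of all genes were called. In edgeR 2 channel genes were called in each diet, where 1.55% and 2.29% of all genes were. Over both diets together, *Kcnk13* had an unadjusted p for time of 0.0200 in limma (adjusted p = 0.160) and passed in edgeR (adjusted p = 0.0179). Its peak in that fit of limma was at ZT 1.08, with an amplitude of 0.11. Within a diet its limma adjusted p was 0.721 in control and 0.429 in PLX5622 mice.

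The third comparison asked whether the rhythm of a channel gene differed between the diets. The interaction F test called 0 of the 70 genes and 0.0% of all 14580 genes, and 0 of 82 channel genes in edgeR and in DESeq2. At an unadjusted p under 0.05 there were 3 channel genes (4.29%), beside 669 of all genes (4.59%), 3 of 82 in edgeR and 4 of 82 in DESeq2. The smallest adjusted p of the 70 genes was 1.0. For *Kcnn2* the unadjusted p was 0.136, as given above, and for *Kcnip4* and *Kcnj14* it was 0.642 and 0.650.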

How the data were processed

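RNA from the cortex of 47 mice was sequenced with 1 library per mouse. According to the methods, the authors aligned reads with STAR to the mouse genome (GRCm38.p6), kept those on the main chromosomes, and with Salmon and a Gencode annotation made the TPM values they deposited. Despite an FPKM in its name, the second table the authors deposited holds whole-number counts per gene, and the submitters' processing notes name STAR, featureCounts (a counting program), edgeR, limma and the build mm10 without their roles. Groups came from the sample labels. The methods state group housing with 4 mice in a cage, but the sources used here do not tie mice to cages, so p-values measure the spread between these mice.

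Genes were matched by identifier to GENCODE M21. Tests of TPM used log2(TPM + 1) of the 14580 genes whose mean reached 1 TPM over all libraries, in limma 3.58.1 in R 4.3.3, with diet and the 24-h cosine and sine of Zeitgeber time as terms, or with their interaction with diet. JTK_CYCLE was written for this work with an exact null, a period of 24 h and 6 phases. Counts were tested with edgeR 4.0.16 (quasi-likelihood) and DESeq2 1.42.0 as alternatives, also for genes under the filter. Benjamini-Hochberg adjustment ran over all genes tested. Correlations used 100000 two-sided permutations. The effect of normalization, filters, the replicate number as a block, ZT as a factor, 3 residual principal components and each left-out library was computed. The fit of *Kcnk6* without the filter and the relation of *Kcnj13* to choroid plexus markers were chosen after the data were seen. Each test was tested on simulated data with seeded changes first. In limma 100% of seeded diet changes and 99.5% of seeded rhythms and rhythm differences were recovered. False calls were 4.31%, 4.8% and 7.44% of the calls for diet, time and rhythm difference. JTK_CYCLE recovered 84% in control and 92% in PLX5622 mice. The seeded diet and time changes were larger than any fitted over both diets for the 70 tested channel genes, so smaller ones were not covered. Between any 2 libraries of a group the counts differed by more than sampling noise (chi-square per degree of freedom at least 4.30 over 69 pairs). Precision at a low gene is limited by its counts, which are given for *Kcnk6*, *Kcnn4*, *Kcnj13*, *Kcnj14* and *Kcne4*.

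The channel genes and the lists were chosen with earlier results of these data known. Named genes were all members of the microglial, astrocytic, vascular and choroid plexus lists, those past the threshold for diet, the 5 with the smallest p for time, the smallest interaction p, the 5 with the highest control mean and the 5 with the largest diet difference that did not pass, and genes outside this rule are marked where they are described or are given by count. *Kcne2* and a few genes that the rule names are not reported here.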

Additional observations from a re-analysis of the deposited data

Results flagged for a closer look

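In 6 of the 55 groups of 4 mice examined over 5 genes (*Kcnk6*, *Kcnk13*, *Kcnn2*, *Kcnip4* and *Kcnj14*), 1 value stood apart from the rest of its group by Dixon's criterion, where chance gives about 1 in 20 groups, or 2.75. At ZT2, *Kcnip4* was at 27.5 TPM in control mouse 4, where its group otherwise held 18.5 to 19.6. It was also at 15.5 TPM in the first control mouse at ZT22 (others 23.3 to 24.1) and at 32.6 TPM in the third PLX5622 mouse at ZT22 (others 23.2 to 24.1). *Kcnj14* was at 2.96 TPM in the second control mouse at ZT22 (others 2.26 to 2.37). *Kcnk13* was at 4.47 TPM in the third PLX5622 mouse at ZT6 (others 3.97 to 4.04) and at 2.72 TPM in the first PLX5622 mouse at ZT14 (others 4.14 to 4.40). These values were kept.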

How the results depend on the processing

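The diet difference of *Kcnk6* kept its direction and its call under each of 7 alternatives to the fit without the filter, with log2 values from -1.44 to -0.66, and in all 47 fits that left out 1 mouse (-0.67 to -0.64). The count of channel genes called for diet, 0, became 1 without the filter (*Kcnk6*), 2 with median-of-ratios and with upper-quartile scaling (*Kcns2* and *Kcnab3*, with 5.11% and 5.08% of all genes called), 3 with edgeR (6.8%), 4 with DESeq2 (7.41%) and 11 with 3 residual principal components as covariates, where 17.5% of all genes were called. Leaving out single mice gave 0 to 1 genes, with *Kcns2* called without the fourth control mouse at ZT2 or the second PLX5622 mouse at ZT10. The count for time, 3, became 7 with either scaling (9.16% and 9.20% of all genes), 10 with edgeR (11.3%), 11 with DESeq2 (13.4%), 5 with ZT as a factor (11.0%) and 28 with 3 residual principal components (29.3%), and 2 to 4 without single mice. For a difference in rhythm the count of 0 became 1 with 3 residual principal components, and stayed at 0 in all 47 fits without 1 mouse. Why these counts moved was not tested. For JTK_CYCLE, leaving out mice gave 0 in both diets. Replacing it with edgeR within the diet gave 2 genes in control and 2 in PLX5622 mice, and limma gave 1 in PLX5622 mice.

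Same-numbered mice had a mean correlation of 0.051 (-0.25 to 0.30, 253 pairs) in their deviations from the group means, and -0.017 with different numbers, so the numbers were not treated as pairs. They did carry some structure. Of 47 libraries, 24 were on average closest to their own number, more than 4 equally likely numbers would give. Mouse 4 was above mouse 1 in 11 of 11 groups for *Kcnt2*, *Kcnip4*, *Kcnab1*, *Kcnf1*, *Kcnh1*, *Kcnj9*, *Kcnj12* and *Kcns1*. The same held in 9 or 10 of 11 groups for many other channel genes. Among tested genes it held in only 1 of 11 for *Kcnj10* and *Kcne1l* and in 2 of 11 for *Kcnj16*. The share over all genes is not given here, so whether channel genes differ from the rest cannot be told. What the numbers stand for is not given in the sources used here. With the replicate number as a block 3.96% of all genes were called for diet and 7.15% for time, and the channel counts were 0 for diet, 5 for time, 0 for a difference in rhythm, and 1 in control and 1 in PLX5622 mice for JTK_CYCLE.

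The correlation of *Kcnj2* with microglia markers changed sign to 0.23 when centred within Zeitgeber time and to 0.093 without the 2 farthest mice, and it ran from -0.16 to 0.082 when single mice were left out, above 0 without the third PLX5622 mouse at ZT2. Those of *Kcnk6* (0.34 to 0.44), *Kcnk13* (-0.29 to -0.033) and *Kcna3* (0.11 to 0.28) kept their sign. Depth limits *Kcnn4*, *Kcne4*, *Kcnmb1* and *Kcnj13*, for which some libraries held fewer than 10 counts.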
